A study of Mus musculus with 6 samples.

Results

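The histone genes of the deposited expression table were taken as every gene symbol starting with Hist1h to Hist4h, H2af, H3f3 or H1f. The rule found 84 of 24419 symbols. Of these, 68 belong to the replication-dependent clusters (Hist1h to Hist4h), and 16 lie outside them (H2af, H3f3 and H1f). The 16 are mostly replacement variants, and 1 of them, H2afy3, is annotated as a processed pseudogene, as is Hist3h2bb-ps in the Hist3h cluster.

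The RNA came from mouse cerebral cortex bordering an infarct, on day 4 after the middle cerebral artery had been blocked for 60 min in male mice. The tissue was digested with pronase for 75 min, and cells positive for Thy1 and negative for ACSA2, CD31, CD45 and O4 were collected by flow sorting as a population enriched for neurons. The 3 libraries labelled cKO came from mice with the genotype Slc17a7-cre, Slc32a1-cre and Padi4flox/flox, in which Cre is driven from vesicular transporter genes of excitatory and inhibitory neurons. The 3 libraries labelled control came from Padi4flox/flox mice without a Cre driver named, and all 6 libraries came from mice with the floxed allele and the stroke. Neither ages nor whether each library came from a separate animal are stated, so the p-values measure only the spread between these libraries, which may be technical.

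Histones are the proteins that DNA is wound around in chromatin. H2A, H2B, H3 and H4 form the core of the nucleosome, and H1 binds the linker DNA between nucleosomes. The cluster genes are transcribed mainly during S phase, when new DNA needs packaging. Most of their mRNAs end just after a conserved stem-loop in place of a poly(A) tail. Replacement variants such as H3.3 and H2A.Z are made throughout the cell cycle from polyadenylated, usually spliced mRNAs, and in long-lived neurons they take over from the cluster proteins in part of the chromatin. Padi4, the gene floxed here, encodes an enzyme that converts arginine residues of histones to citrulline.

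Padi4 itself did not bear out the labels. The libraries labelled cKO held 0, 3 and 12 Padi4 reads and the libraries labelled control held 0 in each, which is 15 of 54970031 reads against 0 of 42217921. The exact Poisson 95% intervals, which cover counting error only, were 0.153 to 0.450 CPM and 0 to 0.0874 CPM. The deleted exons are not stated. Every direction that follows is that of the labels.

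Depth ran from 10094145 to 24056755 reads over the libraries, and between 14042 and 17891 genes were detected. Values are scaled CPM, depth-scaled read counts after a further scaling per library by the submitters. A level of 3 reads, taken as the detection floor, was 0.126 to 0.303 scaled CPM. Padi2, a related deiminase gene, stood at 77.4, 30.1 and 15.9 scaled CPM in the libraries labelled cKO and at 48.7, 35.6 and 30.3 in those labelled control. All 14 neuronal markers listed had tested levels, and their sum ran from 1456 to 7393 scaled CPM. The sum of 10 mature oligodendrocyte markers ran from 10808 to 31723, in cells sorted as O4-negative. The sum of 7 astrocyte markers ran from 774 to 2104, in cells sorted as ACSA2-negative, and was highest in the library labelled cKO replicate 2. Fitted differences, labelled cKO minus labelled control, were above 0 for 6 of these 7 and below for 1, with a median of 0.59. They were above 0 for 9 neuronal markers and below for 5, with a median of 0.19. For mature oligodendrocyte markers 1 was above and 9 below (median -0.26). For 8 markers of pericytes, smooth muscle and fibroblasts, 1 was above and 7 below (median -0.28). All of these lists had 0 calls. The sum of 4 neutrophil markers was at most 3.67, and that of 8 microglial and macrophage markers at most 51.9. These sums are not per length, so they are not comparable between cell types. Markers of neurons, oligodendrocytes and astrocytes were thus present in every library, and their part in the histone levels was not tested. In such bulk RNA, fewer cells of a type and less RNA per cell cannot be told apart.

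The stem-loop that marks most cluster genes was read from the annotated transcripts (GENCODE vM21, GRCm38). The motif searched, on the transcript's own strand, was 16 bases that open with GG and close with CC, hold T at bases 6, 7 and 9 and A at base 11, and form 6 stem pairs. It was present in 46 of the 68 cluster members, and in 1 of the 16 members outside the clusters, H2afx. For members, counted as genes, only matches after the stop codon of a coding transcript were taken. Over all annotated transcripts, coding or not and with those of histones included, a match anywhere occurred in 210 of 141767, or 0.148%. In the members with the motif, its first base lay 22 to 59 bases after the stop codon, with a median of 32. The sequences below, for members whose values are given later, show the 16-base stem-loop in capitals with 5 flanking bases on each side.
Hist1h3b: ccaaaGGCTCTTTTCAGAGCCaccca
Hist1h2bb: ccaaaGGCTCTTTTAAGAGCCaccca
Hist1h1c: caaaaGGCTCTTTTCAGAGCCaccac
Hist1h4b: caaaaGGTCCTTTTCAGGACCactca
Hist1h4h: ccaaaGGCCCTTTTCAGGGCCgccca
Hist1h4d: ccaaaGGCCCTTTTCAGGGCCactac
H2afx: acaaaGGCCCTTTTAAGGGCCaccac
Hist1h3b and Hist1h1c hold the same 16 bases, as do 26 of the 34 H1, H2A, H2B and H3 cluster genes with the motif. Bases 3 to 5 of the stem were CTC in all of these 34. In the 12 H4 genes with the motif and in H2afx they were CCC or TCC.

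The annotated ends divide the cluster members into 3 classes. In 23 the annotated transcript ends within 100 bases of the stem-loop, near the end known for a processed replication-dependent mRNA. In another 23 it runs on for more than 100 bases past the stem-loop, up to 4884 bases in Hist1h1d. In 22 no stem-loop was annotated, and in 15 of these the transcript stops within 20 bases of the stop codon, short of the 22 bases at which the motif began at the earliest in the others. Hist1h3c, with 74 bases after the stem-loop, lies just inside the limit of 100, and Hist1h4a and Hist1h2ae, with 108 and 151, lie just outside it.

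Promoter motifs were counted in both classes. A window of 250 bases before and 50 after the start site was found in the RefSeq table (GRCm38.p6) for 76 of the 84 members. CCAAT was present on either strand in 53 of 62 cluster promoters (85.5%), 10 of 14 promoters outside the clusters (71.4%) and 37.9% of all 27025 promoters. TATAAA occurred in 56.5% of cluster promoters, 7.14% of those outside and 14.2% of all. ATTTGCAT, the octamer, occurred in 7 of 18 H2A and 6 of 16 H2B cluster promoters and in 1.75% of all. AAACACA, a motif of H1 promoters, occurred in 5 of 6 cluster H1 promoters and in 7.14% of all. None of these letter strings contains another, and a match describes the letters only. The windows of 4 members that differ in their values below are given with these motifs in capitals, on either strand.
Hist1h2bb (chr13:23746484-23746783, plus strand): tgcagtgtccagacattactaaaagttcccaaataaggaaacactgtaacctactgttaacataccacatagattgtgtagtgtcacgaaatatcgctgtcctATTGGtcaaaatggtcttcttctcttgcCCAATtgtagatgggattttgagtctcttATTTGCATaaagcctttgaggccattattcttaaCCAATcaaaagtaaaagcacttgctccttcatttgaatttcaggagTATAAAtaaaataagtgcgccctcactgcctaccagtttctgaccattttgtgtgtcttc
Hist1h3b (chr13:23752095-23752394, plus strand): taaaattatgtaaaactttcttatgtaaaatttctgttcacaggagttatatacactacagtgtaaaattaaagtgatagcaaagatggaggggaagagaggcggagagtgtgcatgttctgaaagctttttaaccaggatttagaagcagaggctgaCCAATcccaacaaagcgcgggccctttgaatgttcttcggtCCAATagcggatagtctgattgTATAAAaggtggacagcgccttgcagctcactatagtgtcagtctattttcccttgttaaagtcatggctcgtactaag
Hist1h1c (chr13:23738557-23738856, plus strand): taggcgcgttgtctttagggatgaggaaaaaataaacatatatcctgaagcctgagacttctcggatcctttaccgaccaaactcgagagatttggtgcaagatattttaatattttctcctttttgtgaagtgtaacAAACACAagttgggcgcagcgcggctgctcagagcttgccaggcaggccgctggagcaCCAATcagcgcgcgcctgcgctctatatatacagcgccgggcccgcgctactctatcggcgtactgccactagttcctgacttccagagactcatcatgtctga
H3f3b (chr11:116024455-116024754, minus strand): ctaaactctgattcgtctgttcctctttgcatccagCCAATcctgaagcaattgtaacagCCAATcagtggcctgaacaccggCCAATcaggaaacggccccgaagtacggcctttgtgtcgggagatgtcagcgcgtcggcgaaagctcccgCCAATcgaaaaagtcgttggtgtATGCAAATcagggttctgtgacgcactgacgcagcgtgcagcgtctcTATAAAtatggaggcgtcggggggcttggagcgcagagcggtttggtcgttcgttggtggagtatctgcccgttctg
All 4 windows hold CCAAT. The octamer is in those of Hist1h2bb and H3f3b, and the H1 motif is in that of Hist1h1c. Hist1h2bb, Hist1h3b and H3f3b hold TATAAA, and H3f3b is the 1 that does among the 14 members outside the clusters with a window.

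No histone gene passed the test of a difference between the libraries labelled cKO and those labelled control, given the spread between libraries. Of the 84 members, 13 had 0 reads in every library, 6 had reads but too few to test, and 65 passed the filter of at least 1 scaled CPM in at least 3 libraries. In limma's moderated test on log2(value + 1), with Benjamini-Hochberg adjustment over all 14796 genes tested, 0 of the 65 passed an adjusted p of 0.05, and the background share of genes passing was 0%. At an unadjusted p under 0.05 the count was also 0 of 65, against 0.852% of all genes, and edgeR and DESeq2 on the recovered reads also gave 0 at either threshold. The smallest unadjusted p among the members was 0.159, and every adjusted p was at least 0.9996.

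Fitted fold changes of the 65 members ran from -1.31 to 1.32 on the log2(value + 1) scale, with standard errors of 0.29 to 1.35. They were below 0 for 44 and above 0 for 21, while of all genes tested 52.0% were below 0 and 48.0% above. The median was -0.11 over the 54 cluster members tested, -0.28 over the 11 tested outside the clusters and -0.02 over all genes. The cluster median was 0.35 without the library labelled cKO replicate 2, and -0.65 without the one labelled control replicate 2, so its sign rests on single libraries. The median outside the clusters was 0.04 without the library labelled cKO replicate 2. Every library labelled cKO was above every one labelled control for 1 member, Hist1h4k, against 2.45% of all genes. For 2 members, H2afv and Hist1h2ac, every library labelled cKO was below every one labelled control, against 2.26% of all genes. The groups thus did not overlap for 3 of 65 members, against 4.70% of all genes in either direction.

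**Figure D1:**
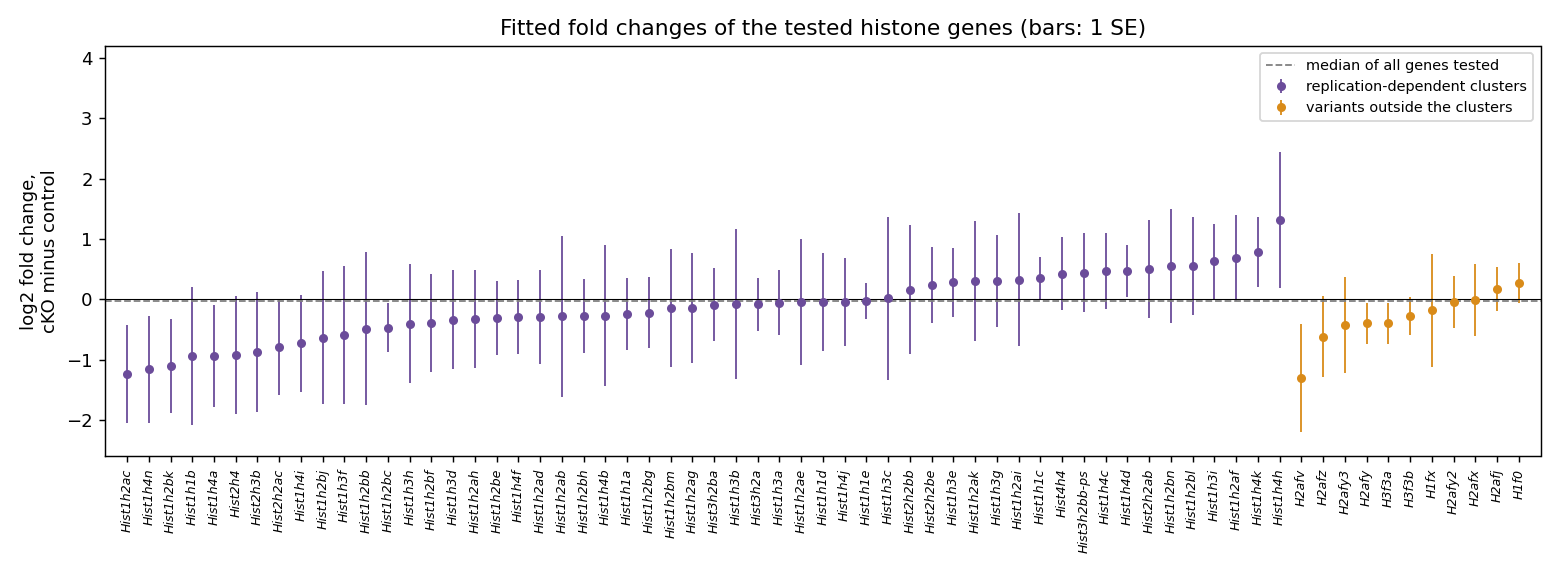
Fitted log2 fold changes, labelled cKO minus labelled control, of the 65 tested histone genes on the log2(scaled CPM + 1) scale, with bars of 1 standard error. Cluster members are on the left and members outside the clusters on the right, each in rising order. The dashed line is the median of all genes tested, -0.02. Values run from -1.31 for H2afv to 1.32 for Hist1h4h.

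The variant H3.3 is encoded by H3f3b and H3f3a. H3f3b (chromosome 11, 116021912 to 116027962, minus strand) had 291, 177 and 202 scaled CPM in the libraries labelled cKO and 290, 211 and 307 in those labelled control. H3f3a (chromosome 1, 180800832 to 180813943, minus strand) had 113, 58.5 and 81.9 in the libraries labelled cKO and 113, 84.7 and 130 in those labelled control. In both genes the groups overlapped, and the library labelled cKO replicate 2 was lowest. The fitted differences were -0.28 ± 0.32 for H3f3b and -0.40 ± 0.34 for H3f3a (log2, SE, n = 3 each, limma adjusted p 1.00). H3f3a overlaps the antisense gene H3f3aos, and the counting's strand setting is not stated, so their reads cannot be told apart. Per kilobase of annotated exon, H3f3b averaged 82.8 scaled CPM over the libraries and H3f3a 27.7.

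H2A.Z, a variant found at promoters and enhancers, is encoded by H2afz and H2afv. H2afz (chromosome 3, 137864487 to 137866922, plus strand) had 71.5, 11.1 and 87.2 scaled CPM in the libraries labelled cKO and 74.5, 41.3 and 86.9 in those labelled control. The libraries numbered 2 were the lowest in each group, and the groups overlapped. H2afv (chromosome 11, 6427229 to 6444443, minus strand) had 17.4, 0.505 and 17.7 in the libraries labelled cKO and 18.2, 18.2 and 20.2 in those labelled control. The groups of H2afv did not overlap, but replicates 1 and 3 labelled cKO lay just under those labelled control, and replicate 2 was near the floor. Its fitted difference was -1.31 ± 0.90 (log2, SE, limma unadjusted p 0.175, adjusted p 1.00), and -0.10 without the library labelled cKO replicate 2.

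The macroH2A variants carry a large extra domain and are found in repressed chromatin. H2afy, which encodes macroH2A1, had 52.5, 41.1 and 59.1 scaled CPM in the libraries labelled cKO and 54.4, 88.3 and 61.7 in those labelled control. H2afy2, which encodes macroH2A2, had 15.8, 23.7 and 19.6 in the libraries labelled cKO and 20.6, 17.9 and 22.1 in those labelled control. The groups overlapped in both genes, with fitted differences of -0.40 ± 0.34 and -0.05 ± 0.43 (log2, SE, limma adjusted p 1.00). The pseudogene H2afy3 had 3.02, 0 and 1.05 in the libraries labelled cKO and 3.87, 0.368 and 2.00 in those labelled control. It overlaps Pvt1, H2afy2 overlaps Aifm2 and H2afy overlaps Gm47071, so these levels are uncertain.

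H2A.X, encoded by H2afx, is phosphorylated at DNA double-strand breaks, and H2A.J, encoded by H2afj, differs from canonical H2A mainly at its tail. H2afx (chromosome 9, 44334694 to 44336077, plus strand) had 23.8, 8.89 and 47.4 scaled CPM in the libraries labelled cKO and 27.7, 14.4 and 26.5 in those labelled control. The libraries numbered 2 were lowest in each group, and the one labelled cKO replicate 3 was the highest of all. H2afj had 32.3, 44.0 and 33.9 in the libraries labelled cKO and 26.6, 34.1 and 36.7 in those labelled control. For H2afj the highest was the one labelled cKO replicate 2, and the groups of both genes overlapped.

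Among linker histones outside the clusters, H1f0 encodes H1.0, known from cells that have stopped dividing. H1f0 (chromosome 15, 79028450 to 79030504, plus strand) had 97.3, 118 and 86.2 scaled CPM in the libraries labelled cKO and 94.8, 101 and 58.7 in those labelled control. The library labelled cKO replicate 2, lowest for H3f3a, H3f3b and H2afz, was the highest here, and the groups overlapped (log2 difference 0.27 ± 0.33, SE, limma adjusted p 1.00). H1fx had 8.35, 0.101 and 15.1 in the libraries labelled cKO and 3.96, 6.77 and 5.28 in those labelled control. The library labelled cKO replicate 2 held 1 read of it, and the fitted difference of -0.18 ± 0.94 was 0.98 without that library.

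**Figure D2:**
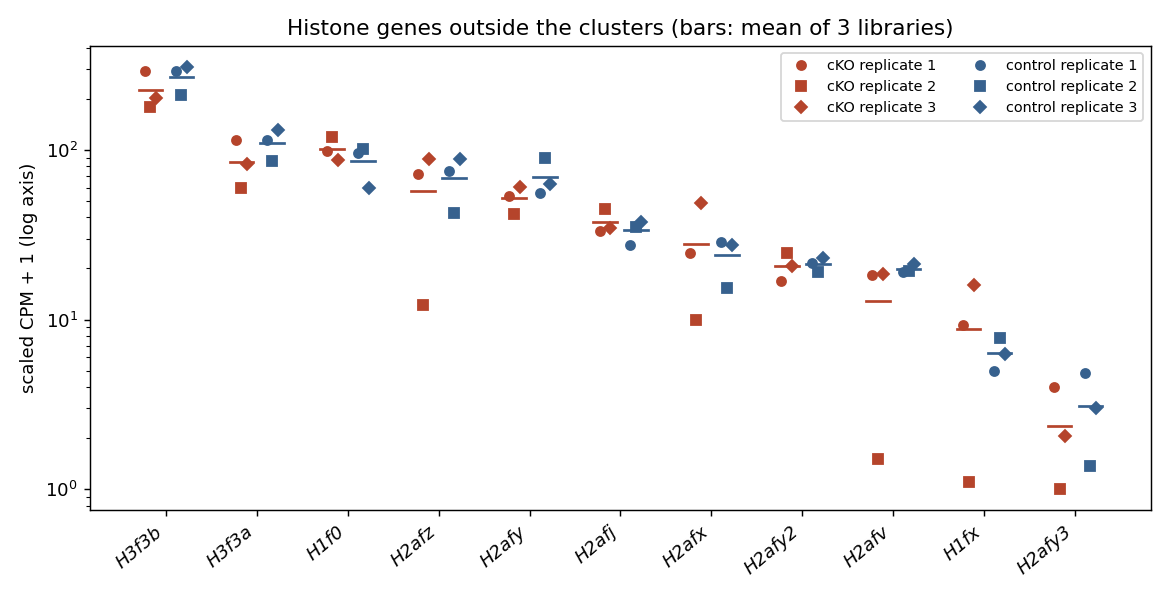
Scaled CPM + 1 on a log axis for the 11 tested members outside the clusters, with 1 point for each library, labelled cKO left of labelled control, and a bar at the mean of 3 libraries. The square of cKO replicate 2 lies far below the others for H2afz, H2afv and H1fx (11.1, 0.505 and 0.101 scaled CPM). It lies above the others for H1f0, H2afj and H2afy2 (118, 44.0 and 23.7).

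The remaining members outside the clusters are germ-cell genes in the main. H2afb1 and H2afb2, which encode the testis variant H2A.B, had 0 reads in every library, and H2afb3 was at most 1.00 scaled CPM. H1foo, the oocyte linker histone gene, was at most 1.78, and H1fnt, of spermatids, at most 0.126. In the clusters, the testis genes Hist1h2aa and Hist1h2ba had 0 reads, and Hist1h1t was at most 1.28.

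Of the cluster linker histones, Hist1h1e and Hist1h1c held most of the reads. Hist1h1e (H1.4; chromosome 13, 23620629 to 23622558, minus strand) had 100, 86.5 and 106 scaled CPM in the libraries labelled cKO and 119, 85.0 and 96.1 in those labelled control. Hist1h1c (H1.2; chromosome 13, 23738808 to 23740367, plus strand) had 66.8, 109 and 80.4 in the libraries labelled cKO and 83.3, 70.5 and 47.7 in those labelled control. The groups overlapped in both, and the library labelled cKO replicate 2, low for many other members, was the highest for Hist1h1c (log2 difference 0.35 ± 0.35, SE, limma unadjusted p 0.333, adjusted p 1.00). Both transcripts are annotated to run on past the stem-loop. Together, in scaled CPM not adjusted for length, they made 81.7, 91.9 and 77.3% of the cluster H1 sum in the libraries labelled cKO and 77.3, 92.6 and 63.3% in those labelled control. Hist1h1e overlaps an annotated form of Hist1h2be, so reads of those genes may be exchanged.

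Hist1h1b and Hist1h1d were low in the libraries numbered 2. Hist1h1b, which encodes H1.5, had 10.8, 0 and 16 scaled CPM in the libraries labelled cKO and 19.4, 1.91 and 22.8 in those labelled control. Hist1h1d, which encodes H1.3, had 17.6, 8.18 and 19 in the libraries labelled cKO and 23.0, 2.94 and 38.5 in those labelled control. In both, the 2 values of the libraries numbered 2 lay below the other 4. Hist1h1b is annotated without a stem-loop, its transcript stopping near the stop codon.

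Cluster H2A and H2B genes showed both kinds of pattern. Hist3h2a, the H2A gene with the most reads, had 24.0, 30.6 and 68.3 scaled CPM in the libraries labelled cKO and 35.9, 43.2 and 38.9 in those labelled control. Hist1h2ab had 13.5, 0.202 and 15.8 in the libraries labelled cKO and 27.1, 0 and 17.8 in those labelled control. The libraries numbered 2 were at or below the floor for Hist1h2ab but not for Hist3h2a, and the groups of both overlapped. Hist3h2a overlaps Trim17, so its level is uncertain. Hist1h2ac, with a stem-loop and a long annotated end, had 5.52, 0 and 5.72 in the libraries labelled cKO and 9.13, 6.62 and 6.44 in those labelled control. Its groups did not overlap (log2 difference -1.24 ± 0.82, SE, limma unadjusted p 0.159, adjusted p 1.00), and without the library labelled cKO replicate 2 the difference was -0.33.

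Hist1h2bc, the H2B gene with the most reads and a spliced transcript, had 51.9, 26.2 and 38.0 scaled CPM in the libraries labelled cKO and 56.8, 69.7 and 35.3 in those labelled control. Hist2h2bb had 23.1, 3.54 and 83.7 in the libraries labelled cKO and 36.1, 3.68 and 37.4 in those labelled control. Hist1h2bk had 3.79, 0 and 2.78 in the libraries labelled cKO and 3.04, 3.90 and 8.06 in those labelled control. The groups overlapped in all 3. None of the 50-base stretches of Hist2h2bb was unique to it among annotated genes, so its level is uncertain.

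The H3 and H4 genes with the most reads shared a highest library, the one labelled cKO replicate 3. Hist1h3e had 18.7, 11.9 and 47.3 scaled CPM in the libraries labelled cKO and 22.9, 11.8 and 21.5 in those labelled control. Hist1h3i had 22.5, 11.8 and 39.6 in the libraries labelled cKO and 17.6, 6.18 and 23.6 in those labelled control. Hist1h4d, whose stem-loop is printed above and which had the most reads of the H4 genes, had 55.0, 60.7 and 148 in the libraries labelled cKO and 69.1, 41.6 and 63.5 in those labelled control. In these 3 genes the groups overlapped. Hist1h3i has 12.4% of its 50-base stretches unique to it, so its level is uncertain. The fitted differences were 0.28 ± 0.57, 0.63 ± 0.62 and 0.47 ± 0.43 (log2, SE, limma adjusted p 1.00). Without the library labelled cKO replicate 3 they were -0.25, 0.22 and 0.025, and without the one labelled control replicate 2 that of Hist1h3i was 0.11.

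Hist1h4h, which had the highest fitted fold change of the members, had 25.6, 10.9 and 33.7 scaled CPM in the libraries labelled cKO and 26.2, 0 and 24.9 in those labelled control. Its difference of 1.32 ± 1.13 (log2, SE, limma unadjusted p 0.268, adjusted p 1.00) was -0.25 without the library labelled control replicate 2, the only one at 0. Hist1h4k had 9.16, 7.78 and 12.8 in the libraries labelled cKO and 7.01, 5.96 and 3.28 in those labelled control. Its groups did not overlap, and the difference was 0.79 ± 0.58 (log2, SE, limma unadjusted p 0.202, adjusted p 1.00). Hist1h4n had 6.14, 0.808 and 22.0 in the libraries labelled cKO and 26.6, 8.68 and 11.3 in those labelled control, with overlapping groups and a difference of -1.16 ± 0.89 (log2, SE, limma unadjusted p 0.22). It was -0.22 without the library labelled cKO replicate 2 and -2.05 without the one labelled cKO replicate 3.

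The plot of all members by library shows a contrast between libraries that shared a number and not a label. The libraries numbered 2 were both below the other 4 for 31 of the 65 tested members (47.7%), and for 18.8% of all genes tested. The count was 28 of 54 in the clusters and 3 of 11 outside them. By annotated end it was 11 of 17 for the short-ended class, 8 of 20 for the class that runs on, and 9 of 17 for the class without a stem-loop. This contrast was chosen after the values were seen and is given with no test. Of the 71 members with reads, 20 were at 0 in the library labelled cKO replicate 2 and 15 in the one labelled control replicate 2, against 0 to 4 in the others. These libraries also had the fewest genes detected, 14042 and 15261, at 10094145 and 13077507 reads. The one labelled control replicate 1 had 10638387 reads and 17891 genes detected. The library labelled cKO replicate 3 was the highest for 23 of the 71 members, with a neuronal marker sum of 7393 scaled CPM and a mature oligodendrocyte sum of 10808. The one labelled control replicate 3 was the highest for 22, with sums of 2964 and 21426. The part of these sums in the histone levels was not tested.

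**Figure D3:**
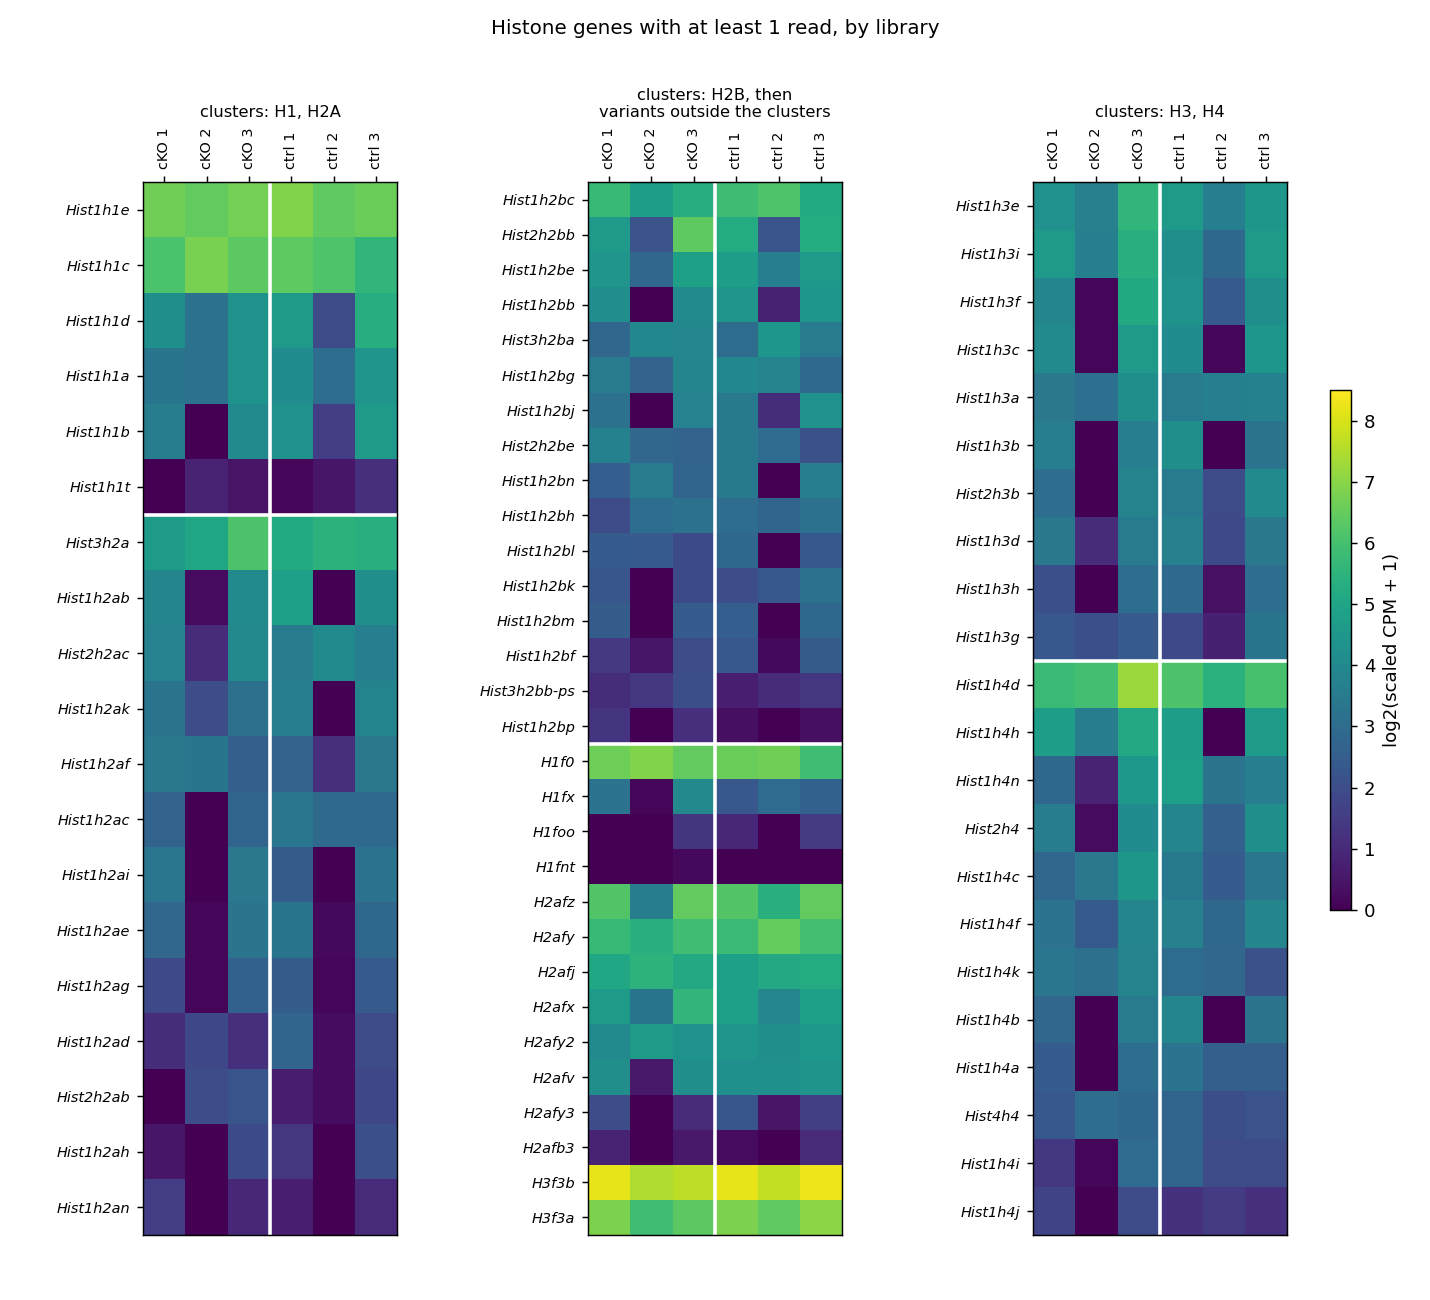
Level of each of the 71 histone genes with reads, as log2(scaled CPM + 1), in the 3 libraries labelled cKO (left of the white line) and the 3 labelled control (right of it). Rows are ordered within families by mean level. White horizontal lines separate the cluster families and set off the members outside the clusters, whose families have no lines between them. The columns of both libraries numbered 2 hold most of the darkest cells, with 20 and 15 members at 0.

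Neighbours in a stretch of the Hist1h cluster followed this contrast to different degrees. The genes from Hist1h1c to Hist1h1a lie on chromosome 13 from 23738808 to 23764406, and they were chosen after their values were seen. Hist1h3c had 15.6, 0.101 and 22.4 scaled CPM in the libraries labelled cKO and 16.6, 0.0736 and 20.9 in those labelled control, which is 1 read in each library numbered 2. Hist1h2bb had 16.9, 0 and 15.8 in the libraries labelled cKO and 20.4, 0.736 and 21.3 in those labelled control. Hist1h3b had 11.3, 0 and 11.4 in the libraries labelled cKO and 18.0, 0 and 8.61 in those labelled control. For these genes, and for Hist1h2ab above, the libraries numbered 2 were at or near 0 and the other 4 lay at 8.61 to 27.1, with overlap between the labels.

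Hist1h4b, next in order, had 6, 0 and 10.5 scaled CPM in the libraries labelled cKO and 13.6, 0 and 8.67 in those labelled control. It overlaps 4930558J22Rik, so its level is uncertain. Hist1h4a had 4.61, 0 and 7.45 in the libraries labelled cKO and 8.39, 4.93 and 5 in those labelled control. Hist1h3a had 9.31, 7.68 and 17.7 in the libraries labelled cKO and 10.1, 11.8 and 12.2 in those labelled control. Hist1h3a was thus not low in both libraries numbered 2, although its annotated transcript also ends within 100 bases of the stem-loop. Hist1h1a, at the far end, had 8.97, 8.28 and 19.4 in the libraries labelled cKO and 16.6, 7.14 and 20.7 in those labelled control, where the libraries numbered 2 were lowest but well above the floor. Hist1h1c, at the near end, was highest in one of them.

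Summed by class, the levels of the libraries numbered 2 were again low. The 23 short-ended cluster members summed to 153, 31.5 and 213 scaled CPM in the libraries labelled cKO and to 216, 49.5 and 206 in those labelled control. The 23 that run on past the stem-loop summed to 387, 360 and 653 in the libraries labelled cKO and to 502, 343 and 434 in those labelled control. The 22 without an annotated stem-loop summed to 189, 94.4 and 276 in the libraries labelled cKO and to 222, 107 and 224 in those labelled control. All 3 classes were lowest in the libraries numbered 2, by a narrow margin in the class that runs on and by wider ones in both others. The short-ended class thus made 21, 6.49 and 18.6% of the cluster sum in the libraries labelled cKO and 23.0, 9.90 and 23.8% in those labelled control. Hist1h1c and Hist1h1e belong to the class that runs on, and the H1 family as a whole made 28.1, 43.8 and 21.1% of the cluster sum in the libraries labelled cKO and 27.8, 33.6 and 26.3% in those labelled control.

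Proliferation markers were low in the same libraries. The sum of Mki67, Top2a, Cdk1, Ccnb1, Ccna2 and Birc5 was 373, 52.0 and 190 scaled CPM in the libraries labelled cKO and 379, 6.25 and 277 in those labelled control. In the library labelled cKO replicate 2, Mki67 made 48.4 of that sum and Cdk1, Ccnb1, Ccna2 and Birc5 were at 0. A list of 50 S phase genes summed to 841, 618 and 781 in the libraries labelled cKO and to 1014, 548 and 1017 in those labelled control. Markers of pericytes, smooth muscle and fibroblasts, 8 genes, summed to 2630, 129 and 2582 in the libraries labelled cKO and to 4664, 334 and 529 in those labelled control. All these sums were lowest in the libraries numbered 2, and their part in the histone levels, like that of the number of genes detected, was not tested.

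**Figure D4:**
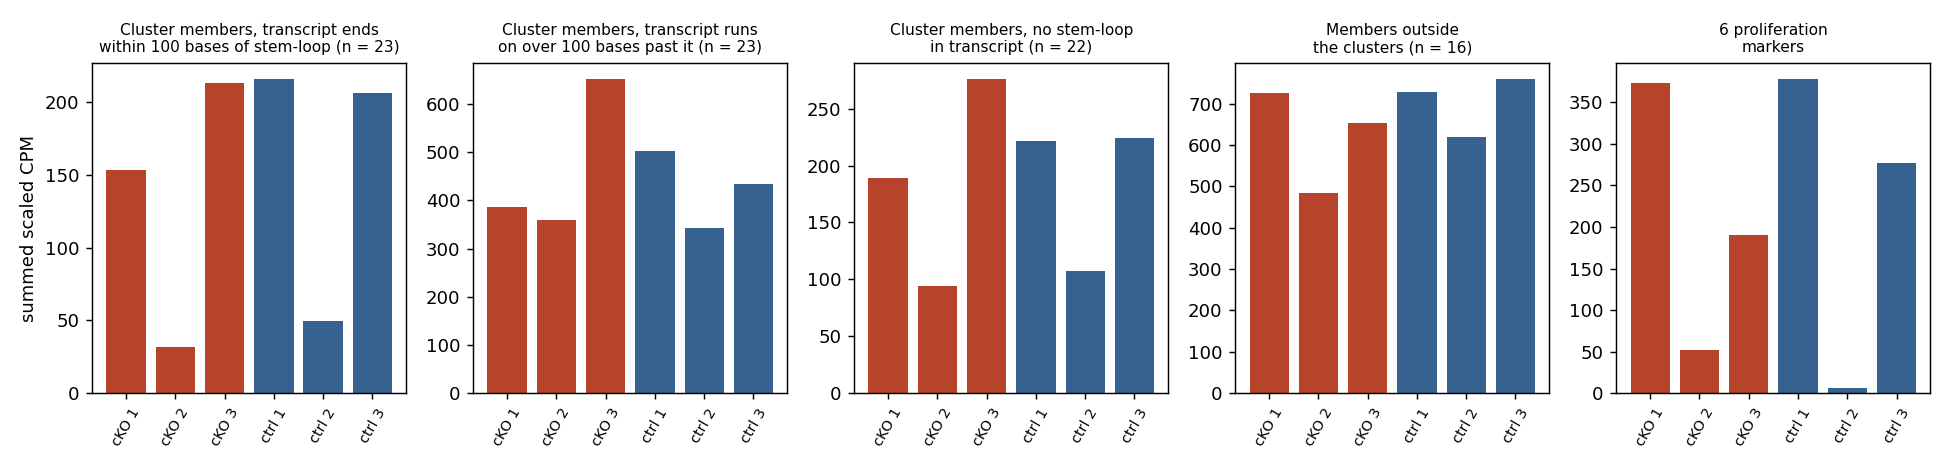
Summed scaled CPM in each library for the 23 cluster members whose transcript ends within 100 bases of the stem-loop, the 23 that run on further, the 22 without a stem-loop, the 16 members outside the clusters and 6 proliferation markers, with the bars labelled cKO left of those labelled control. Each panel has its own axis from 0. The bars of both libraries numbered 2 are low in the first panel (31.5 and 49.5), the panel without a stem-loop (94.4 and 107) and the last (52.0 and 6.25), and closer to the others in the remaining panels.

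Cluster genes were then set against the members outside the clusters. The 68 cluster members summed to 729, 486 and 1142 scaled CPM in the libraries labelled cKO and to 940, 500 and 864 in those labelled control. The 16 members outside summed to 727, 484 and 654 in the libraries labelled cKO and to 729, 618 and 760 in those labelled control. The log2 ratio of cluster over outside sums was 0.01, 0.01 and 0.81 in the libraries labelled cKO and 0.37, -0.31 and 0.18 in those labelled control. Its mean was 0.27 ± 0.46 in the libraries labelled cKO and 0.08 ± 0.35 in those labelled control (SD, n = 3 each). The groups overlapped, and the difference of 0.19 was smaller than either SD and -0.08 without the library labelled cKO replicate 3. All members together made 0.146, 0.0951 and 0.177% of the column total in the libraries labelled cKO and 0.170, 0.116 and 0.158% in those labelled control.

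Per kilobase of annotated exon, the order of mean levels over the libraries mixed the classes. The annotated length was 2976 bases for H3f3b, joined over 4 transcripts. It was 381 for Hist2h2bb and 411 for Hist1h3i, whose annotated transcripts end at the stop codon. The order between the classes thus depends on the annotation. After H3f3b at 82.8 scaled CPM per kilobase came Hist2h2bb at 82.1, Hist1h4d at 64.2, Hist1h1e at 51.2, Hist1h3i at 49.1, Hist1h1c at 48.9 and H1f0 at 45.1. Their ranges over the libraries were 59.6 to 103 for H3f3b, 9.28 to 220 for Hist2h2bb, 36.6 to 130 for Hist1h4d and 44.0 to 61.5 for Hist1h1e. The ranges were 15.03 to 96.3 for Hist1h3i, 30.6 to 69.99 for Hist1h1c and 28.6 to 57.7 for H1f0. Without the library labelled cKO replicate 3, the mean of Hist2h2bb was 54.5. H3f3b lay above H1f0 throughout, while each of these genes overlapped its neighbours in the order. Hist1h4h at 43.0 and Hist1h2bc at 40.1 followed, ahead of H2afz at 35.0 and H3f3a at 27.7.

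How far reads can be assigned to a single histone gene limits these levels. Of the 13 members with 0 reads in every library, 11 are cluster genes, among them Hist1h4m, Hist1h2ao and Hist1h2ap, and Hist2h2aa1 and Hist2h2aa2. The median share of their 50-base stretches found in no other annotated gene was 10.2%, against 59.9% over the 71 members with reads, and 8 of the 13 and 10 of the 71 were under 15%. No source says how multi-mapping reads were counted. Hist1h4n, at 14.4% unique, and Hist1h4m, at 10.2% and with 0 reads, are uncertain for this reason. Exons of other named members, among them H2afx, H1f0, H1fx, Hist1h2ab and Hist1h2ac, also overlap those of other annotated genes.

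Genes that regulate, carry or accompany histone synthesis also showed 0 calls. Of 25 tested genes for the transcription and 3′ processing of histone mRNA, 11 had fitted differences above 0 and 14 below, with a median of -0.07. Slbp, which encodes the protein that binds the stem-loop, had 15.9, 26.9 and 29.4 scaled CPM in the libraries labelled cKO and 22.5, 10.9 and 37.3 in those labelled control. Npat, which encodes a coactivator of cluster transcription, had 187, 125 and 86.2 in the libraries labelled cKO and 146, 128 and 133 in those labelled control. Neither gene was lowest in both libraries numbered 2. Eri1, an exonuclease gene for histone mRNA ends, had 27.3, 0.101 and 23.7 in the libraries labelled cKO and 40.3, 16.8 and 43.9 in those labelled control, with a fitted difference of -1.81 ± 1.08 (log2, SE, limma unadjusted p 0.126). Sp1, a transcription factor gene, had 124, 87.2 and 56.7 in the libraries labelled cKO and 144, 126 and 130 in those labelled control, groups that did not overlap (unadjusted p 0.0892, limma).

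Also in that list, Ccne1, the cyclin E1 gene, had 4.85, 24.4 and 11.9 scaled CPM in the libraries labelled cKO and 6.91, 0.588 and 11.9 in those labelled control. Upf1, a helicase gene of mRNA decay, had 69.9, 72.8 and 113 in the libraries labelled cKO and 88.3, 159 and 102 in those labelled control. The groups overlapped in both genes.

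Of 39 histone chaperone and exchange genes, 19 had fitted differences above 0 and 20 below, with a median of -0.05. Asf1b, an H3-H4 chaperone gene of dividing cells, had 2.59, 6.06 and 2.78 scaled CPM in the libraries labelled cKO and 3.87, 0 and 0.611 in those labelled control. Nasp, which encodes a chaperone of H1 and H3-H4, had 54.5, 20.2 and 41.5 in the libraries labelled cKO and 70.6, 36.3 and 73.4 in those labelled control. Both had overlapping groups, and the libraries numbered 2 were the lowest for Nasp only. Nap1l4, for an H2A-H2B chaperone, had 107, 37.6 and 82.8 in the libraries labelled cKO and 107, 104 and 96.2 in those labelled control. Mms22l, a replication-coupled assembly gene, had 16.4, 2.63 and 7.11 in the libraries labelled cKO and 13.7, 22.4 and 10.9 in those labelled control. The library labelled cKO replicate 2 was lowest for both.

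Of the 50 S phase genes tested, 19 had fitted differences above 0 and 31 below, with a median of -0.23. Gins1, of the replicative helicase, had 3.26, 0 and 0.168 scaled CPM in the libraries labelled cKO and 3.13, 3.75 and 5.44 in those labelled control (log2 difference -1.56 ± 0.75, SE, limma unadjusted p 0.0636). Cdc45, of the same helicase, had 6.96, 21.3 and 5.22 in the libraries labelled cKO and 7.01, 0 and 6.67 in those labelled control. The groups overlapped in both genes, which did not share an order of libraries. All adjusted p-values in these lists were 1.00 (limma, over all genes tested), and the medians stand beside -0.02 over all genes.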

How the data were processed

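RNA was measured in 3 libraries labelled cKO and 3 labelled control. Per the labels' protocols, the RNeasy Mini Kit purified the RNA and the Ovation SoLo kit made the libraries. Trimmomatic, HISAT2, featureCounts and edgeR are named, with the mm10 build, per the submitters' processing notes. No source used here gives the strand setting, the annotation, the handling of multi-mapping reads or whether poly(A) RNA was selected. The values deposited by the authors were handled as a normalized signal, scaled CPM whose column totals ran from 961962 to 1027958. The log-scale test of the design, written for plain CPM, was kept. In every library 100% of values were within 0.001 of a whole multiple of 1 read, so reads were recovered.

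Genes reaching 1 scaled CPM in 3 or more libraries, 14796 in all, were tested with limma-trend (limma 3.58.1, R 4.3.3) on log2(value + 1), and Benjamini-Hochberg adjustment was made over all of them. Fold changes on this scale are too small for low genes. Alternatives were edgeR 4.0.16 and DESeq2 1.42.0 on recovered reads, quantile normalization, median-of-ratios factors, pseudocounts of 0.1 and 5, a filter at 5, no filter, a replicate block and leaving out each library. Leaving out both libraries numbered 2 was added later, with the values known. Simulated data with known changes were used to test the procedure. The simulated libraries were drawn independently, without the contrast of the libraries numbered 2. The simulation therefore does not show how large a change these 6 libraries could reveal.

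The members and lists were chosen with earlier results of these data known. Values are given for every tested member outside the clusters, the 2 members of each cluster family with the highest mean, and the 5 members with the smallest p in each direction. Up to 4 genes of each other list with the smallest p are named, with Padi4 and Padi2. A gene that this rule names among the S phase genes is not reported here. Hist1h3a, Hist1h3b, Hist1h3c, Hist1h4a, Hist1h4b, Hist1h2bb, Hist1h1a, Hist1h1b, Hist1h1d, Slbp and Npat, and members at or near 0 reads, were named after their values were seen. Stem-loops were searched in GENCODE vM21 transcripts and motifs in RefSeq promoter windows. Protein sequences were not used here.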

Additional observations from a re-analysis of the deposited data

How the results depend on the processing

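No histone gene passed an adjusted p of 0.05 under any of the 16 alternatives run, and over all genes DESeq2 called 1, Ifit3, where limma and edgeR called 0. Whether the replicate numbers mark a shared batch is not stated and was not tested. Deviations from the group means correlated at 0.491, 0.301 and 0.0338 between same-numbered libraries, and at -0.403 to 0.0281 between libraries of unlike number. Each gene's deviations cancel out within a group, so these correlations are tied to each other. The values between unlike numbers are therefore not an independent background. The fit with the replicate block called 0 members, as did the main fit, so the calls cannot decide whether the numbers pair the libraries. Of 462 fold changes of 29 single members under the alternatives, 414 kept their sign. With edgeR, H1fx was 0.55, H2afx 0.22 and Hist3h2a 0.055, and with DESeq2 they were 0.51, 0.19 and 0.026 and Hist1h3c was -0.019. Hist1h3c was -0.0066 with median-of-ratios factors, and Hist1h2ab was 0.14 with a pseudocount of 0.1. H1fx was 0.11 and H2afx 0.023 with a pseudocount of 5, and 0.27 and 0.027 with quantile normalization. Without both libraries numbered 2, H1fx was 1.13, H2afx 0.30 and Hist3h2a 0.12. Leaving out 1 library at a time moved the cluster median between -0.65 and 0.35, the median outside the clusters between -0.49 and 0.04, and the difference in the log2 ratio of sums between -0.08 and 0.33. The same omissions turned the sign of 15 of the 29 members whose fold changes were followed. Their fold changes ran from -0.96 to 0.98 for H1fx, -0.55 to 0.59 for H2afx, -0.18 to 0.094 for H2afy2, -0.92 to 0.082 for H2afy3, -1.14 to 0.29 for H2afz, -0.13 to 0.10 for Hist1h1e, -1.79 to 0.95 for Hist1h2ab, -1.70 to 0.89 for Hist1h2bb, -1.34 to 1.12 for Hist1h3b, -1.38 to 1.40 for Hist1h3c, -0.25 to 0.70 for Hist1h3e, -1.46 to 0.79 for Hist1h4b, -0.25 to 2.13 for Hist1h4h, -0.85 to 1.26 for Hist2h2bb and -0.52 to 0.22 for Hist3h2a. The cause of these changes was not tested. Levels under 3 reads, which were up to 0.303 scaled CPM, are uncertain, and the part of depth in the low cluster levels was not tested.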
